A study of Mus musculus with 6 samples.

Results

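The genes described here are 38 listed genes of fatty acid oxidation and ketone body formation, measured in the epithelium of the mouse small intestine. They were listed by function: enzymes of mitochondrial and peroxisomal beta-oxidation, the carnitine shuttle, acyl-CoA thioesterases, an enzyme of ketogenesis, and target genes of the nuclear receptor PPAR alpha with its partners. The platform annotation paired 66 probe sets with exactly 1 of these genes, and 35 of the 38 genes could be tested among 12994 genes in all. Each value is the intensity of 1 probe set on 1 Affymetrix array, and the brightest probe set stood for its gene.

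RNA came from epithelial cells that were shaken off the small intestine of C57BL/6 mice aged 2 weeks with a calcium chelator. The 3 replacement samples have the genotype Ecadflox/Ncad;Vil-Cre, and by their labels gut epithelium carries N-cadherin in place of E-cadherin. The 3 control samples were taken from littermates that kept E-cadherin, and no further genotype is stated for them. Vil-Cre is a recombinase driven by the villin promoter, which is active in gut epithelium. The animals were suckling pups, which live on milk fat, and the labels do not say whether 1 animal or several gave each sample.

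Fatty acids are burned in steps. Long chains are joined to carnitine by Cpt1a, carried into mitochondria by Slc25a20 and handed back to coenzyme A by Cpt2. Acyl-CoA dehydrogenases, hydratases, hydroxyacyl-CoA dehydrogenases and thiolases then shorten the chain, and electron transfer flavoprotein passes electrons on to the respiratory chain. Double bonds need isomerases and a reductase, and very long chains are first shortened in peroxisomes. Acetyl-CoA that is not burned can be turned into ketone bodies, which the gut of suckling animals is known to make. PPAR alpha, a receptor that senses fatty acids and binds DNA together with RXR, turns on many of these genes, and Ppargc1a codes for a coactivator that works with it.

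Arrays had equal trimmed means, and between 55.1% and 61.8% of their probe sets reached an intensity of 16, the floor that was set before taking log2. Control 2 and control 3 differed, as log2 values of 5109 bright probe sets, with an SD of 0.115, against 0.347 to 0.564 for the other pairs within a group. They were averaged and counted as 1 replicate, so that n = 2 for control and n = 3 for replacement in each difference below. Cdh1, the gene of E-cadherin, had intensities of 2757.4, 2334.8 and 2203.5 in controls and 1073.0, 1174.6 and 1356.6 in replacement samples, where 47.8% of the control level remained. Both probe sets of Cdh2, the gene of N-cadherin, stayed under the floor on all 6 arrays, the highest value being 13.5, so the array gave no check of the N-cadherin allele. By Xist and Eif2s3y, genes marking females and males, control 1 and replacements 2 and 3 were female, and the other 3 samples were male.

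Of the 35 tested genes, 5 fell in the replacement samples and none rose. These were Acot1, Eci1, Acot2, Acaa2 and Eci2, with levels 1.94-fold to 2.89-fold lower than in control, and 4 of the 5 fell at least 2-fold. A gene was called changed at an adjusted p under 0.05 from limma, with Benjamini-Hochberg adjustment over all genes tested. The 5 genes are 14.3% of those tested here, beside 4.66% of all genes called lower and 4.46% called higher. At an unadjusted p under 0.05, 11 of the 35 were lower and 0 higher, beside 12.9% of all genes lower and 11.4% higher at that threshold. In bulk RNA, fewer cells of a type and less RNA per cell cannot be told apart.

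The other 30 genes did not pass, and most of them leaned the same way. A log2 difference below 0 was found for 29 of the 35 genes (82.9%), against 52.0% of all genes. For 20 of the 35 (57.1%) all 3 replacement arrays lay below all 3 control arrays, while 18.8% of all genes had arrays that did not overlap in that direction and 17.8% in the other. For no gene of the list did all replacement arrays lie above all control arrays. The median log2 difference was -0.36, with a range from -1.53 for Acot1 to 0.75 for Angptl4, and the median of all genes was -0.02. Relative to the control mean of each gene, the median over the 35 genes was 0.04, -0.07 and -0.01 on the log2 scale in controls 1, 2 and 3. It was -0.42, -0.29 and -0.42 in replacements 1, 2 and 3, and 30 of the 35 genes lay below the control mean on each of these 3 arrays. On controls 1, 2 and 3, whose own values set that mean, 14, 26 and 19 of the 35 genes lay below it. These counts were not taken over all genes.

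**Figure D1:**
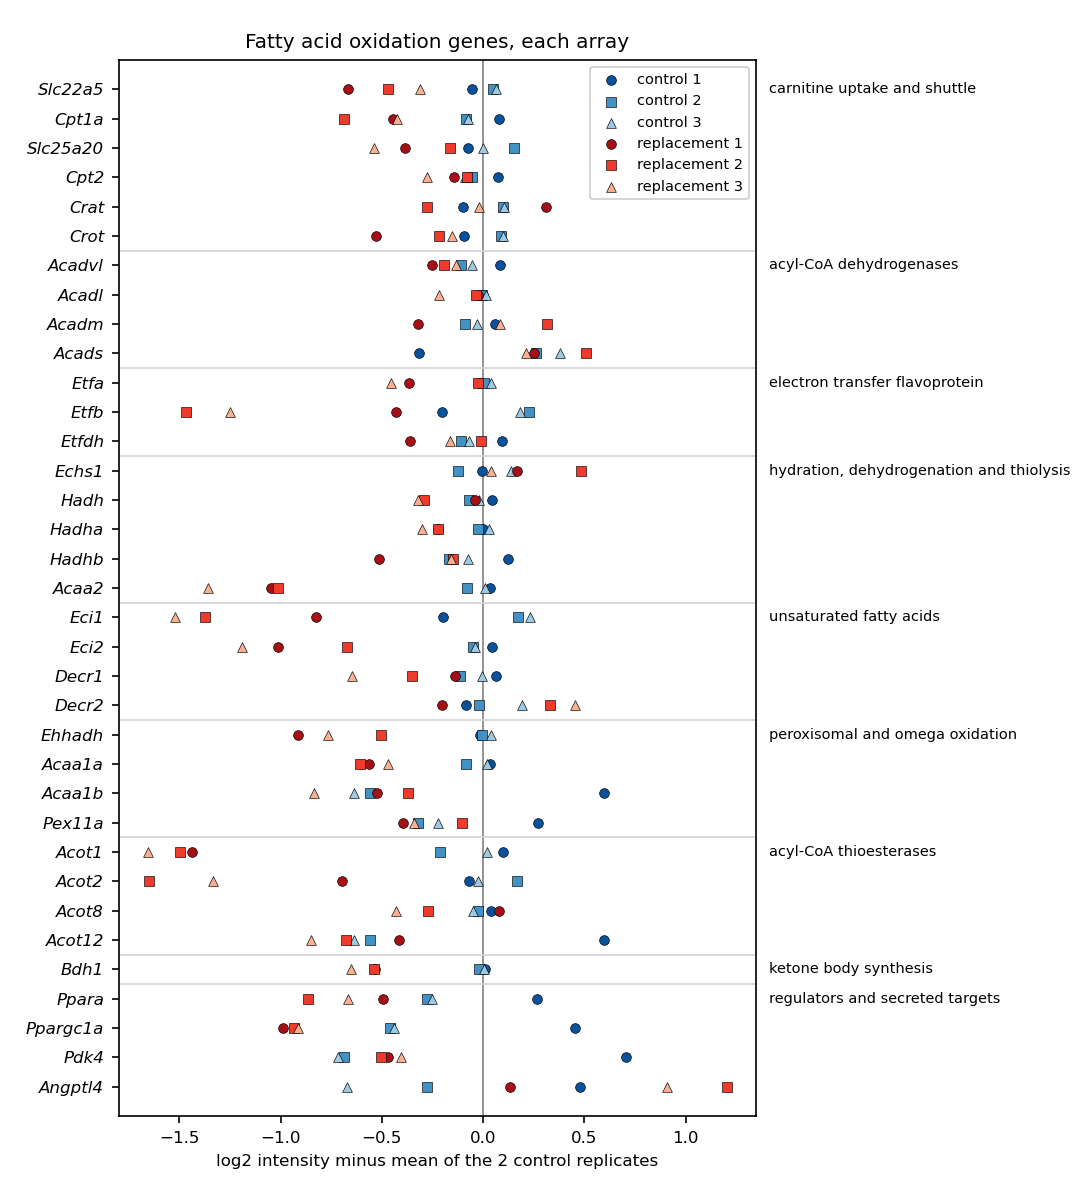
Log2 intensity of the 35 tested genes on each of the 6 arrays, as the distance from the mean of the 2 control replicates of that gene (x axis, log2 units), grouped by role. Blue points are control arrays and red points are replacement arrays; for 20 of the genes every red point lies to the left of every blue one, and control 1 (dark blue circle) lies far to the right for Pdk4, Acaa1b and Acot12.

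The calls rest on both control replicates. With control 1 left out, 0 of the 35 genes passed (8 genes of all rose and 3 fell), and with controls 2 and 3 left out together 0 passed (3 rose and 1 fell), although the 5 genes kept differences of -1.63 to -0.91 in these fits. Without replacement 2 the count was 2 (Acot1 and Acaa2), and without replacement 3 it was 1 (Acot1). The count of genes with a difference below 0 stayed between 28 and 30 whichever of these libraries was left out. Genes whose replacement arrays lay below all controls numbered 20 without control 1, beside 3377 of all 12994 genes, and 28 without controls 2 and 3, beside 4450.

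Markers of several cell types differed between the groups as well, in part through single genes. Summed over 8 of 8 enteroendocrine markers, the intensity was 2979 to 3584 in controls and 1222 to 2328.5 in replacement samples, with Gip and Sct called lower; the other 6 summed to 1411 to 1467 against 974 to 1351. Over 10 of 11 immune markers it was 2843 to 3387 against 1194 to 1981, with Csf1r called lower and Cd3e and Cd3g under the floor on all arrays. Csf1r carried that sum: the other 9 immune markers summed to 391 to 960 in controls and 437 to 710 in replacement samples, with overlap. Over 6 of 8 adipocyte markers it was 792 to 1049.7 against 376 to 548, with Cidec and Lipe called lower and with Adipoq and Lep, which define that cell type, under the floor on all arrays. Without Cidec and Lipe, both also PPAR targets, the other 4 summed to 34.4 to 153 in controls and 65.6 to 78 in replacement samples, with overlap. Hepatocyte markers, 7 of 9 on the array, summed to 6117.5 to 7667 against 3408 to 5570.1, none of them called, with Ahsg under the floor. Ttr and Cps1 were by far the brightest of those tested, both with overlapping arrays. Ttr read 2741, 3698.4 and 3912.5 in controls and 2760, 639.2 and 1100.9 in replacement samples. Alb, near the floor, and Apoh were not lower, with log2 differences of 0.00 and 0.07. Epithelial markers, 11 of 11, summed to 20436 to 21553 against 27377 to 32869.5, with Krt19, Krt20 and Cldn3 called higher. The other 8 epithelial markers summed to 16482 to 18151 against 19297 to 23118, without overlap. Crypt and cycling markers, 11 of 12, summed to 6229.7 to 6895 against 6909 to 8712, with Rrm2, Ccna2 and Mcm5 called higher. The sums of the other 8 overlapped at 5527 to 6170.4 against 5411 to 6457.5. This list moved both ways: replacement arrays lay above all controls in 7 genes and below them in 3, beside 17.8% and 18.8% of all genes. The 3 lower genes were Lgr5 (log2 difference -0.53), Olfm4 (-0.42) and Mcm2 (-0.27), none of them called. Villus enterocyte markers, 12 of 14, summed to 38979 to 42915 against 29217 to 41319, with Slc2a2 and Anpep called lower. The part of these cell types in the values of the oxidation genes was not tested.

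Upstream sequence was read for the genes that fell and for genes with a match to the element that PPAR and RXR bind, to show what stands before their start sites. That element is 2 copies of AGGTCA in the same direction with 1 base between them. In the RefSeq promoter windows of GRCm38.p6, from 250 bases before to 50 after each start, a match on either strand with at most 2 mismatches over the 12 letters stood in 4 of 33 listed genes with a window (12.1%). The same search gave 4.40% of 27025 genes and 3.86% of 32851 windows. None of the 4 called genes with a window held such a match, and a window for Acaa2 was not used here. Upstream of the start the best stretch had 3 mismatches for Acot2 and 4 for Acot1, Eci2 and Eci1, which 21.3% and 74.5% of all windows reach or better. The 13 bases in capitals are the best upstream match, and each line gives 61 bases 5′ to 3′ on the strand of the gene, the first 4 from genes that fell and the last 3 from genes that hold a match but were not called.
Acot2, chr12:83987779-83987839, plus strand: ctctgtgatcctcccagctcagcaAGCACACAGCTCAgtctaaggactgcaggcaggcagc
Acot1, chr12:84009263-84009323, plus strand: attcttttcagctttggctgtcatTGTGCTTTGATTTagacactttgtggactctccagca
Eci2, chr13:34994324-34994384, minus strand: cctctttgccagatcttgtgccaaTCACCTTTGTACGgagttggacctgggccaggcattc
Eci1, chr17:24426467-24426527, plus strand: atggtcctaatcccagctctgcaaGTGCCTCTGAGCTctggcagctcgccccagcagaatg
Acot12, chr13:91741387-91741447, plus strand: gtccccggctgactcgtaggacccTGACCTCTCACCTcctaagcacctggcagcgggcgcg
Echs1, chr7:140116468-140116528, minus strand: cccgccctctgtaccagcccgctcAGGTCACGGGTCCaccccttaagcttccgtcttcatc
Etfa, chr9:55512284-55512344, minus strand: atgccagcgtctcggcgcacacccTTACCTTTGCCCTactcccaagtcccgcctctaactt
The match of Acot12 had 1 mismatch and lay 110 to 98 bases before the start, those of Echs1 and Etfa had 2 mismatches and lay 83 to 71 and 77 to 65 bases before it. The fourth gene with a match, Slc25a20, held it after its start. A match describes letters only and shows no binding.

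The largest fall was in acyl-CoA thioesterases, enzymes that release free fatty acids from coenzyme A. Acot1, the cytosolic enzyme for long chains, had intensities of 1035.9, 835.5 and 982.8 in controls 1, 2 and 3 and of 358.2, 342.7 and 307.4 in replacements 1, 2 and 3. The groups lay far apart, with little spread inside either. Its level was 2.89-fold lower (log2 difference -1.53, SE 0.230, adjusted p = 0.00371 by limma).

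Acot2, its mitochondrial relative, had intensities of 434.4, 513.2 and 449.2 in controls and of 281.3, 145.4 and 181.3 in replacement samples. The groups did not overlap, and replacement 1 was the closest to the controls. Acot2 was 2.34-fold lower (log2 difference -1.23, SE 0.302, adjusted p = 0.0353 by limma). Its dimmer second probe set, with a difference of -0.38, overlapped between the groups. A probe set shared by Acot1 and Acot2, which cannot be given to either, read 557.2, 609.7 and 674.2 in controls and 244.5, 311.9 and 226.2 in replacement samples, again with no overlap.

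Acot8, a peroxisomal thioesterase, had a log2 difference of -0.21 (SE 0.247) with overlapping arrays and was not called. Acot12, a cytosolic enzyme that splits acetyl-CoA, read 329.2, 147.6 and 139.9 in controls and 163.1, 136.1 and 120.7 in replacement samples. Control 1 stood far above every other array, and without it the groups still overlapped. The log2 difference of Acot12 was -0.65 (SE 0.347, adjusted p = 0.294 by limma) and -0.049 without control 1. Its second probe set differed by -1.25 with no overlap (adjusted p = 0.0605 over probe sets).

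Acot1 and Acot2 stand in a run of related genes, which the GRCm38.p6 gene table orders as Acot2, Acot1, Acot4, Acot3, Acot5 and Acot6. This run was looked at after the values were seen, and Acot6 is on no list. Acot3, a peroxisomal enzyme of the further beta-oxidation list, read 183.3, 172.1 and 211.2 in controls and 44.7, 47.9 and 42.6 in replacement samples. It was 4.15-fold lower (log2 difference -2.05, SE 0.225, adjusted p = 8.28e-04 by limma), on a probe set whose name marks it as possibly shared with related transcripts. Acot6 read 250.4, 314.7 and 329.1 against 117.2, 117.7 and 120.0, a 2.40-fold lower level (log2 difference -1.26, SE 0.234, adjusted p = 0.0108 by limma), while its dim second probe set overlapped. Acot4 read 199.8, 263.2 and 305.6 against 109.6, 130.9 and 139.7 and was not called (log2 difference -0.92, SE 0.257, adjusted p = 0.0561 by limma). Acot5 stayed under the floor on all 6 arrays. Of the 5 genes of the run that were measured, 4 fell, and all 5 had arrays that did not overlap on their brightest probe sets. Over all genes, 4.66% were called lower and 18.8% had replacement arrays below all controls. The run was picked after its values were seen, and the second probe sets of Acot2 and Acot6 overlapped. Because these genes are close relatives, signal of one may reach a probe set of another.

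**Figure D2:**
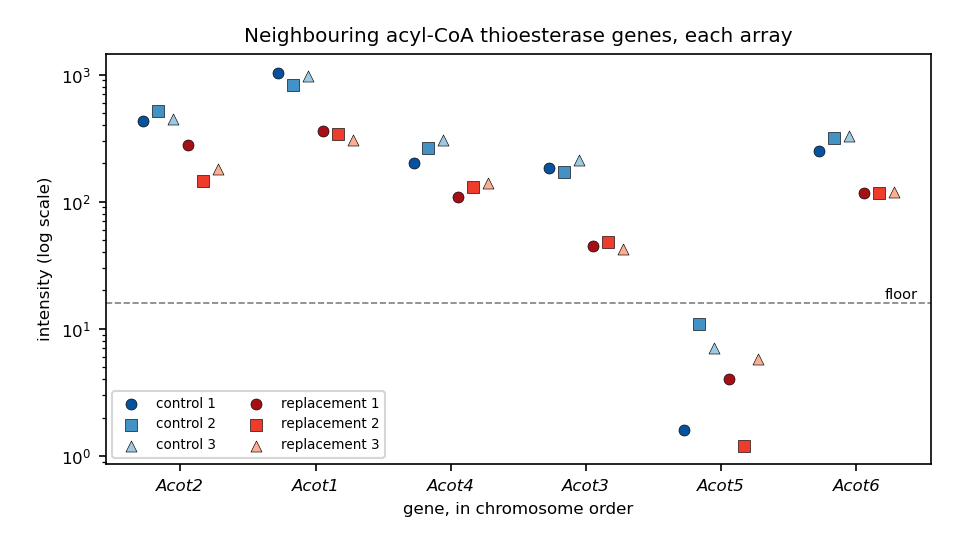
Intensity of the 6 neighbouring acyl-CoA thioesterase genes on each array (y axis, log scale), in the order of the gene table; the dashed line is the floor of 16. Control arrays are blue and replacement arrays red; the groups are separate for Acot2, Acot1, Acot4, Acot3 and Acot6, and Acot5 lies under the floor throughout.

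Among enzymes for unsaturated fatty acids, both enoyl-CoA delta isomerases fell. Eci1, the mitochondrial isomerase that moves a double bond into the place the spiral can use, read 563.6, 727.8 and 758.1 in controls and 365.2, 249.3 and 225.3 in replacement samples. No array overlapped, with control 1 lowest among controls and replacement 1 highest among replacements. Eci1 was 2.36-fold lower (log2 difference -1.24, SE 0.282, adjusted p = 0.0259 by limma).

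Eci2, which does the same in peroxisomes and mitochondria, read 907.2, 849.5 and 856.0 in controls and 435.7, 552.1 and 385.8 in replacement samples. The control arrays were close together, and all replacement arrays lay well below them. Eci2 was 1.94-fold lower (log2 difference -0.96, SE 0.248, adjusted p = 0.0428 by limma), the weakest of the 5 calls, and it missed the threshold when any replacement array was left out. Decr1, the mitochondrial dienoyl-CoA reductase, read 1249.7, 1104.8 and 1192.8 against 1087.9, 938.3 and 763.3 and was not called (log2 difference -0.38, SE 0.248), though its arrays did not overlap. Decr2, the peroxisomal reductase, had a difference of 0.19 (SE 0.268) with overlapping arrays.

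Of the enzymes that hydrate, oxidize and split the chain, only Acaa2 passed. Acaa2, the mitochondrial thiolase that cuts off acetyl-CoA, read 2794.2, 2580.5 and 2747.6 in controls and 1319.5, 1352.7 and 1063.1 in replacement samples. The control arrays lay at about double the level of the replacement arrays. Acaa2 was 2.20-fold lower (log2 difference -1.14, SE 0.236, adjusted p = 0.0174 by limma). Its 2 other probe sets differed by -0.90 and -0.88, also without overlap, and missed the threshold over probe sets at adjusted p = 0.0567 and 0.0817.

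The trifunctional protein, which carries the same steps for long chains, moved little. Hadha, its alpha subunit, read 1261.2, 1239.0 and 1288.0 in controls and 1082.9, 1082.8 and 1023.0 in replacement samples, a log2 difference of -0.25 (SE 0.222) with no overlap between arrays and no call. Hadhb, its beta subunit and thiolase, differed by -0.27 (SE 0.244) with overlap. Hadh, the dehydrogenase for shorter chains, differed by -0.22 (SE 0.231), and Echs1, the hydratase for shorter chains, by 0.23 (SE 0.241), both with overlap. Dimmer probe sets of Hadh gave -0.37 without overlap and -0.39 with overlap.

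Acyl-CoA dehydrogenases, which take the first step for chains of different length, were the role with the smallest median difference (-0.03). Of these genes 0 of 4 passed, which is near the shares over all genes, 4.66% lower and 4.46% higher. Acadl, for long chains, read 2258.7, 2251.7 and 2286.0 in controls and 2221.6, 2208.0 and 1947.3 in replacement samples. All arrays but replacement 3 were close together, and the 95% interval of the log2 difference ran from -0.60 to 0.41 around -0.09. Acadm, for medium chains, read 1052.9, 950.3 and 990.7 against 809.2, 1258.1 and 1070.4. The replacement arrays lay on both sides of the controls, with a difference of 0.03 (interval -0.56 to 0.61). Acadvl, for very long chains, differed by -0.19 (SE 0.226), and Acads, for short chains, by 0.32 (SE 0.267), which was not called. That these 4 genes missed the threshold does not show equal levels in the groups.

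Electron transfer flavoprotein takes electrons from these dehydrogenases. Etfb, its beta subunit, read 1488.2, 2004.4 and 1944.1 in controls and 1271.5, 620.0 and 720.2 in replacement samples. The groups did not overlap, but replacement 1 lay near control 1 and far above replacements 2 and 3. The log2 difference of Etfb was -1.05 (SE 0.330, adjusted p = 0.0824 by limma), which did not pass. Without replacement 1, the array nearest the controls, it was -1.36 at adjusted p = 0.0173 by limma. With arrays left out the difference ran from -1.36 to -0.84, and Etfb was called in 7 of 21 alternatives. Etfa, the alpha subunit, differed by -0.28 (SE 0.241) with no overlap, and Etfdh, which hands the electrons to ubiquinone, by -0.18 (SE 0.236) with overlap.

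None of the 6 genes of carnitine uptake and the carnitine shuttle passed, beside 4.66% of all genes called lower and 4.46% called higher. In 4 of them all replacement arrays lay below all controls, beside 18.8% of all genes. Cpt1a, the enzyme that controls entry of long chains into mitochondria, read 1336.3, 1193.7 and 1198.2 in controls and 927.2, 786.4 and 942.8 in replacement samples. Every replacement array was lower than every control, with a log2 difference of -0.52 (SE 0.232, adjusted p = 0.207 by limma). Its 2 dimmer probe sets, with differences of 0.07 and -0.24, overlapped.

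Slc22a5, the carnitine importer of the cell membrane, read 709.0, 760.7 and 768.1 against 464.1, 532.0 and 592.3, a difference of -0.48 (SE 0.235). Slc25a20, the carrier of the inner mitochondrial membrane, read 1508.1, 1762.9 and 1588.4 against 1216.2, 1416.1 and 1092.5, a difference of -0.36 (SE 0.237). In both genes the groups were separate but the gap was small beside the spread. Their dimmer probe sets, with differences of -0.37 for Slc22a5 and -0.14 for Slc25a20, overlapped. Crot, the peroxisomal octanoyltransferase, differed by -0.30 (SE 0.240) without overlap. Cpt2, the inner transferase, differed by -0.17 (SE 0.227) and Crat, the acetyltransferase, by 0.00 (SE 0.257), both with overlap. The 2 other probe sets of Crat gave -0.43 and -0.95 without overlap, so its probe sets disagree.

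Peroxisomal genes had a median log2 difference of -0.56 and no call among the 4 measured, beside 4.66% of all genes called lower. Ehhadh, the bifunctional hydratase and dehydrogenase of peroxisomes, read 584.4, 589.0 and 606.1 in controls and 313.4, 416.2 and 348.0 in replacement samples. Controls were nearly equal, and all replacement arrays were well below them. Ehhadh differed by -0.73 (SE 0.238, adjusted p = 0.0931 by limma).

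Acaa1a, a peroxisomal thiolase, read 444.6, 410.6 and 440.5 against 294.6, 285.0 and 314.0, a difference of -0.55 (SE 0.224, adjusted p = 0.166 by limma). Its second probe set, at -0.10, overlapped. Acaa1b, the other peroxisomal thiolase, read 1122.4, 503.4 and 476.0 against 515.1, 573.5 and 415.9. Only control 1 was high, far above every other array, and the difference of -0.58 (SE 0.349) came from that array. Without control 1 it was 0.02. On 2 probe sets shared by Acaa1a and Acaa1b the groups overlapped too. Pex11a, which helps peroxisomes divide, differed by -0.28 (SE 0.258) with overlap.

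Cyp4a10, a fatty acid omega-hydroxylase and a strong PPAR alpha target, had only a probe set shared with Cyp4a31 and was not tested. That probe set read 648.1, 79.8 and 87.6 in controls and 21.9, 43.1 and 34.8 in replacement samples. All replacement arrays lay below all controls, and control 1 stood far above the rest. The signal cannot be given to either gene.

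For ketone body formation the list had Bdh1, which turns acetoacetate into beta-hydroxybutyrate and back. Its brightest probe set read 2214.4, 2169.6 and 2203.8 in controls and 1519.0, 1514.1 and 1398.7 in replacement samples. Both groups were tight and far apart. The log2 difference was -0.58 (SE 0.223, adjusted p = 0.146 by limma), which did not pass. Its second probe set read 439.9, 473.6 and 454.4 against 166.1, 199.8 and 226.6, a difference of -1.21 (SE 0.244) that passed over probe sets at adjusted p = 0.0275. Both probe sets point down, and they differ in size.

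Among regulators, none of the 4 measured genes passed on its brightest probe set, beside 4.66% of all genes called lower and 4.46% called higher. Ppara, the gene of PPAR alpha, read 135.7, 93 and 94.5 in controls and 80.1, 62.0 and 71.1 in replacement samples. The groups did not overlap, and control 1 was the highest array. Ppara differed by -0.67 (SE 0.260, adjusted p = 0.145 by limma), or -0.41 without control 1, and its 2 dimmer probe sets, at -0.21 and -0.11, overlapped.

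Ppargc1a, the coactivator, read 157.2, 83.5 and 84.6 in controls and 57.9, 60.2 and 61.0 in replacement samples. Replacement arrays were nearly equal and below all controls, and control 1 lay far above controls 2 and 3. The difference of -0.95 (SE 0.292) missed the threshold at adjusted p = 0.0778 by limma, and without control 1 it was -0.49. All 5 probe sets of Ppargc1a were lower without overlap, by -1.62 to -0.56, and the one at -1.62 (SE 0.295) read 128.3, 75 and 77.2 against 29.7, 38.1 and 29.2 and passed over probe sets at adjusted p = 0.0191.

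Pdk4, a kinase that shuts off pyruvate dehydrogenase when fat is burned, read 733.4, 279.2 and 273.7 in controls and 325.1, 317.0 and 340.0 in replacement samples. Control 1 alone was high, and every replacement array lay above controls 2 and 3. The difference of Pdk4 was -0.46 (SE 0.370) with all controls and 0.24 without control 1, so its direction turns on that library.

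Angptl4, a secreted inhibitor of lipoprotein lipase and a PPAR target, had the highest difference of the list. It read 74.1, 43.9 and 33.4 in controls and 58.4, 122.7 and 100 in replacement samples. Replacements 2 and 3 were above all controls, while replacement 1 lay among them. The log2 difference was 0.75 (SE 0.378, 95% interval -0.10 to 1.60) and was not called. It was 1.22 without control 1 and 0.27 without controls 2 and 3. Fgf21, a fasting hormone and PPAR alpha target, reached the floor of 16 only on control 1 (16.1) and replacement 3 (17.3) and could not be tested. Ucp2, a mitochondrial carrier, was not analysed here.

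**Figure D3:**
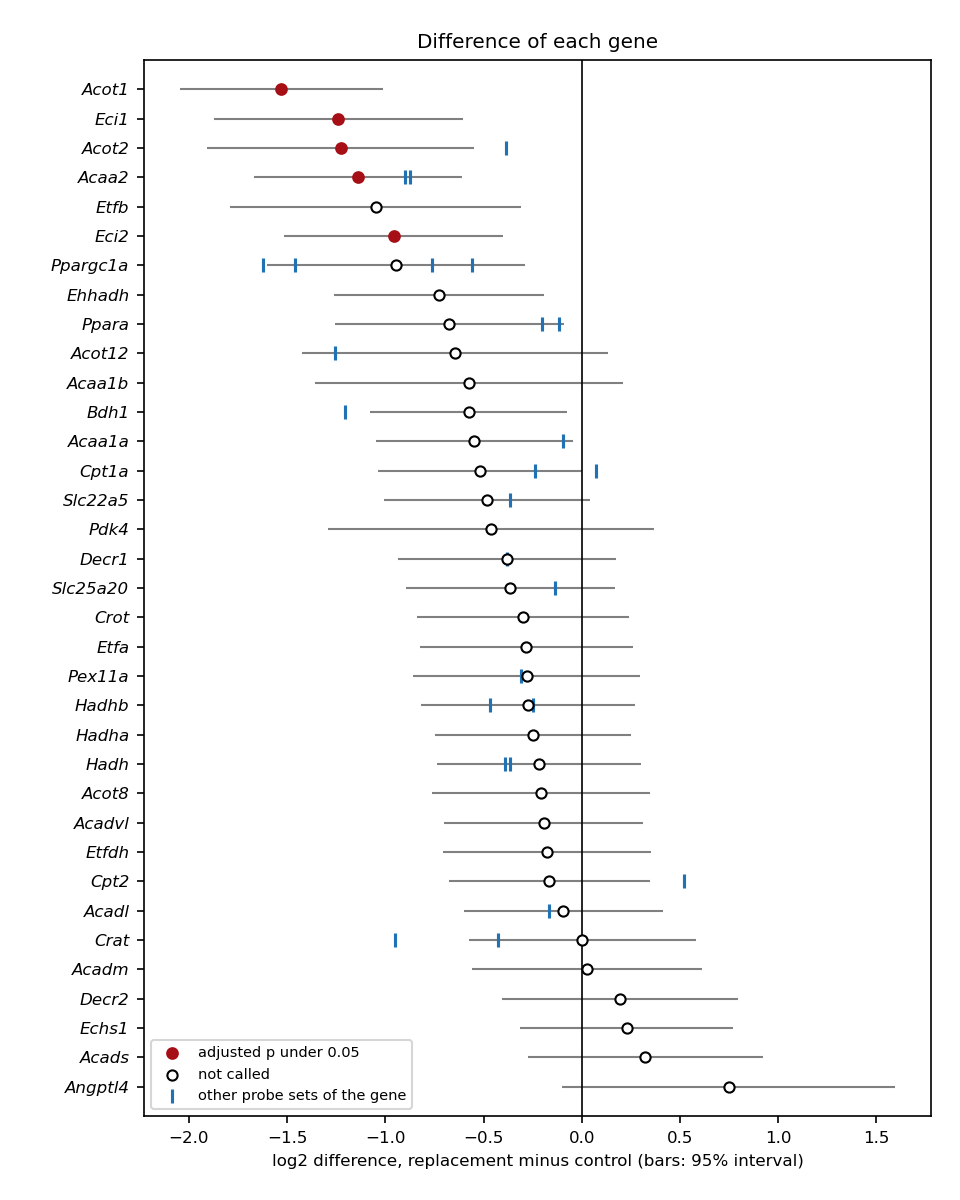
Log2 difference of each of the 35 tested genes, replacement minus control (x axis), with its 95% interval from limma (n = 2 control and 3 replacement replicates). Filled points are the 5 genes with an adjusted p under 0.05, open points were not called, and blue ticks are other probe sets of the same gene; ticks lie far from the point for Bdh1, Crat, Acot2, Acot12 and Cpt2.

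Other genes of the pathway, listed apart from the 35, did not all move with them. Among 32 further genes of beta-oxidation 3 rose and 4 fell, with a median log2 difference of -0.14. For this list and those below, the shares over all genes were 4.46% called higher and 4.66% called lower. Acot3 (above), Slc27a2, a transporter and activator of very long chains (-1.12, SE 0.263, adjusted p = 0.0288), and Pecr, a peroxisomal reductase (-1.07, SE 0.288, adjusted p = 0.0488), were among those that fell. The 3 that rose were Acot9 (1.91), Acot7 (1.61) and Acsl4 (1.44), thioesterases and an acyl-CoA ligase. Of 25 further PPAR targets 6 fell and 1 rose, with a median of -0.27. Mgll (-1.51), Aqp7 (-1.38), Slc25a42 (-1.34), Lipe (-1.20) and Cidec (-1.07), genes of lipid breakdown, transport and storage, were lower, and Mgll reached the floor on only 1 of 3 replacement arrays. Without control 1 the difference of Slc25a42 was -0.88. Vnn1, a pantetheinase and PPAR target, rose by 1.34 on the log2 scale.

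Ketone body genes other than Bdh1 moved both ways. Oxct1, which starts the use of ketone bodies as fuel, read 87.6, 394.0 and 387.1 in controls and 1469.4, 1955.1 and 1554.8 in replacement samples. All replacement arrays were far above all controls, with control 1 the lowest. Oxct1 was 8.90-fold higher (log2 difference 3.15, SE 0.512, adjusted p = 0.00583 by limma). Without control 1 it was 4.22-fold higher (log2 difference 2.08) and missed the threshold at adjusted p = 0.0804, and without controls 2 and 3 it was 18.8-fold higher at adjusted p = 0.0572. Aacs, which uses acetoacetate for lipid synthesis in the cytosol, read 48.3, 54.8 and 67.9 against 196.5, 195.0 and 198.7, a 3.62-fold higher level (log2 difference 1.86, SE 0.232, adjusted p = 0.00157 by limma). Slc16a6, a ketone body exporter, fell by 1.08 on the log2 scale (SE 0.277, adjusted p = 0.0414 by limma). The other 3 genes of this list were not called.

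Receptors and co-regulators, 28 measured, had 1 call: Pparg, the gene of PPAR gamma, read 73.6, 59.2 and 42.9 in controls and 140.9, 188.8 and 137.7 in replacement samples. The groups were well apart, and Pparg rose 2.53-fold (log2 difference 1.34, SE 0.271, adjusted p = 0.0157 by limma). Of 12 genes around pyruvate dehydrogenase, Pdp1, a phosphatase that turns the enzyme on, rose by 1.66 and Pdk1, a kinase that turns it off, rose by 1.22 on the log2 scale. Of 18 genes of peroxisome biogenesis and membranes, Cat, the peroxisomal catalase, fell by 0.96 (adjusted p = 0.0294 by limma) and Slc25a17, a peroxisomal carrier, rose by 1.31. Having 1 call in a direction among 28 or 18 genes is near the shares over all genes, 4.46% higher and 4.66% lower. Of 7 genes of carnitine synthesis and transport, Bbox1, the last enzyme of carnitine synthesis, fell by 1.67 (adjusted p = 0.0112 by limma). Slc22a4 read 4.5, 13.5 and 5 in controls and 28, 37.2 and 29.7 in replacement samples. It was at least 1.96-fold higher, since all controls lay under the floor. Slc22a4 passed the filter only through the replacement arrays, and the floor left no spread among its controls. Its call therefore gives no support, though it is counted among the 25 called genes below. Of 25 called genes outside the 35 (24 from these lists and Acot6), 0 passed without control 1 and 0 without controls 2 and 3, 9 passed without replacement 2 and 5 without replacement 3.

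For the 27 genes of the respiratory chain and the 13 of the citrate cycle, limma called none, and their medians were -0.19 and 0.00. At an unadjusted p under 0.05, the counts were 0 higher and 0 lower in the respiratory chain list and 0 higher and 1 lower in the citrate cycle list, where 11.4% of all genes were higher and 12.9% lower. These lists end where acetyl-CoA and electrons from fatty acids are used.

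**Figure D4:**
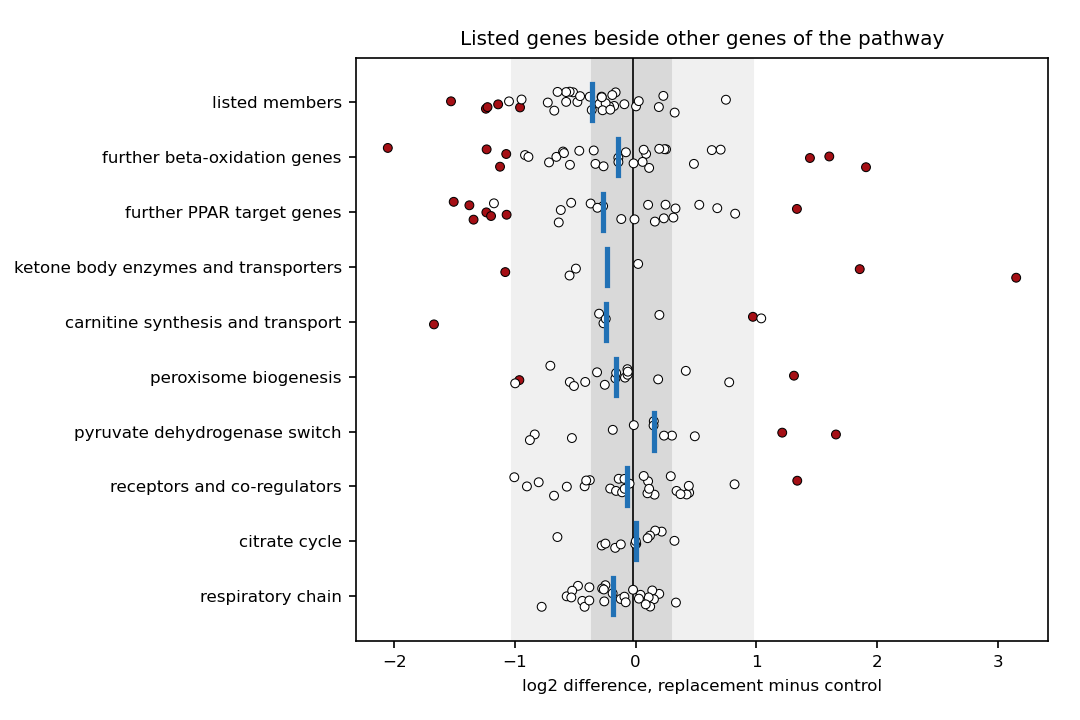
Log2 differences, replacement minus control (x axis), of the 35 listed genes and of 9 further lists, without the 35, with a point for each gene (filled where the adjusted p was under 0.05) and a blue bar for the median of the list. The dark grey band holds the middle of all genes, from -0.36 to 0.29, the light band runs from -1.03 to 0.97 (the 5th to the 95th percentile), and the black line is the median of all genes at -0.02.

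Sex and replicate were mixed across the groups, so the differences were also taken within each sex. The female comparison set replacements 2 and 3 against control 1, the male comparison replacement 1 against the mean of controls 2 and 3. A difference below 0 was found for 30 of 35 genes within females, 27 within males and 24 within both. These within-sex counts were not taken over all genes, so they cannot be read as particular to this list. The median log2 difference was -0.39 within females and -0.27 within males. In 20 of the 35 genes, the 5 called ones among them, all replacement arrays lay below all controls. For these a difference below 0 in both sexes was fixed in advance, and only its size was open. Acot1 differed by -1.67 in females and -1.34 in males, Acaa2 by -1.22 and -1.01, and Eci1 by -1.25 and -1.02. Eci2 differed by -0.98 and -0.97, and Acot2 by -1.42 and -0.77. Among the same 20 genes, Ehhadh differed by -0.62 in females and -0.93 in males, Bdh1 by -0.61 and -0.53, and Ppargc1a by -1.38 and -0.54.

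Control 1, the only female control, stood apart in some of these genes. Its log2 value exceeded the mean of controls 2 and 3 by over 0.5 in 7 of the 35 genes, and in 1807 of all 12994 genes, and it lay as far below in 1 (Acads) and in 1179. The genes with the largest excess were Pdk4 (1.41), Acaa1b (1.20) and Acot12 (1.20). Summed fibroblast and smooth muscle markers (11 of 11) were also highest in control 1, at 1501.5 against 359 and 382 in controls 2 and 3 and 574 to 638 in replacement samples. Their part in these values was not tested, and sex and library cannot be told apart in the control group.

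**Figure D5:**
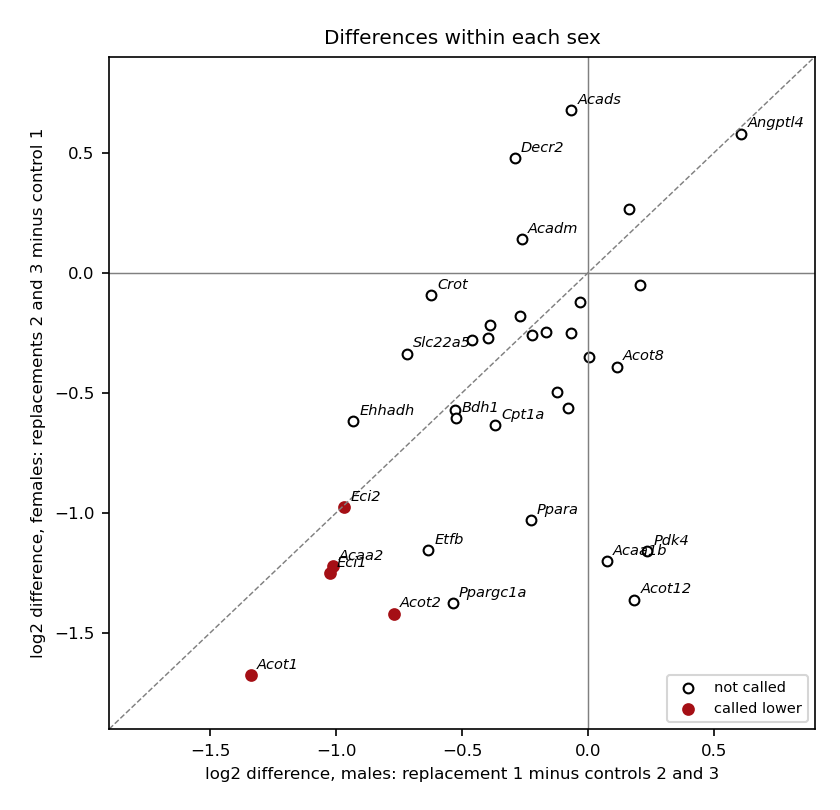
Log2 difference of each of the 35 genes within males (x axis, replacement 1 against controls 2 and 3) and within females (y axis, replacements 2 and 3 against control 1); the dashed line marks equal differences. The 5 called genes, filled, lie at the lower left with negative values in both sexes, which was fixed because their groups did not overlap. Pdk4, Acaa1b and Acot12 lie at the lower right, negative only in females.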

How the data were processed

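RNA of 6 samples was hybridized to Affymetrix mouse arrays, 1 array a sample, 3 control and 3 replacement by their labels. The deposited values are linear probe set intensities that the authors had scaled before deposit, since a mean trimmed by 2% at each end came to 100 for each array. The submitters' processing notes name limma and GCRMA, with the summary method not given in the sources used here, and the deposited values are not log2 values, as GCRMA would write. Arrays have no read depth, so their number limits the precision.

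Values were floored at 16 and log2 was taken, which shrinks differences of dim transcripts. Probe sets that reached the floor on 3 or more of the 6 arrays were used (26664 of 45101, 59.1%), and among them only probe sets with 1 gene symbol. Symbols were updated by Entrez identifier through the GRCm38.p6 gene table, which matched 34741 of 34945. The brightest probe set stood for its gene. For Acaa2, Acaa1a, Hadh, Crat and Angptl4 its name marks possible sharing with related transcripts.

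Control 2 and control 3 were averaged as 1 replicate because their SD, 0.115, lay within the range of 18 hybridization controls over all array pairs (0.0812 to 0.134). The labels do not say whether samples came from separate animals, so the p-values may cover technical spread only. Differences were fitted with lmFit and eBayes of limma 3.58.1 (R 4.3.3), with Benjamini-Hochberg adjustment over 12994 genes and a threshold of 0.05. The steps were tested on simulated data. Figures were drawn with matplotlib 3.10.9.

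The listed genes, the further lists and the tests were chosen with earlier results of these data known. Named genes are the listed genes, Cdh1 and Cdh2, and up to 6 called genes with the smallest p of each further list. No set test was made. Alternatives were other floors and filters, quantile and median scaling, other summaries of probe sets, other eBayes options, array weights, a 2-fold limit, a term for sex, a block for the replicate number, leaving out each array, and all 6 arrays as separate replicates. Counts of genes below 0 and of genes without overlap, with each array left out, were added after seeing the data, as were leave-outs for called genes of the further lists and marker sums without their called genes.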

Additional observations from a re-analysis of the deposited data

Results flagged for a closer look

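In 7 of the 35 genes both female replacement arrays lay on one side of the female control, and the male replacement array lay on the other side of the male controls. This pattern was not counted over all genes, so the 7 cannot be read as particular to this list. The values below are the female log2 difference minus the male one, where the female comparison has 1 control and the male comparison has 1 replicate on each side. For Acot12 it was -1.54 (-1.36 in females, 0.18 in males), for Pdk4 -1.39 (-1.16 and 0.23) and for Acaa1b -1.27 (-1.20 and 0.07), the 3 genes in which control 1 stood highest above controls 2 and 3. For Acot8, the peroxisomal thioesterase, it was -0.50 (-0.39 and 0.11). The difference ran the other way in Decr2 at 0.77 (0.48 and -0.29), Acads at 0.74 (0.68 and -0.07) and Acadm at 0.40 (0.14 and -0.26). The interaction of sex and group in limma gave an unadjusted p of 0.0198 for Pdk4, 0.0199 for Acot12, 0.0753 for Decr2, 0.0889 for Acaa1b, 0.140 for Acads, 0.180 for Acot8 and 0.301 for Acadm. Adjusted over all genes, these lay between 0.586 and 0.677, and 0 genes passed.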

How the results depend on the processing

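No listed gene was called higher in any alternative. The count called lower, 5, became 8 with all 6 arrays as separate replicates, 3 with scaling to the array medians and with all probe sets as units, 2 with a floor at 4, and 1 with no filter and with a floor at 64. With an array left out it ranged from 0 to 5, and with controls 2 and 3 left out together it was 0. The numbers of the samples do not pair them: deviations of same-numbered arrays correlated at -0.017, -8.2e-04 and -0.055 over genes, and with the replicate block the 6 arrays gave 7 listed genes lower, against 8 without the block. A term for sex gave 7. Over the 21 alternatives with a test, Acot1 was called in 19, Acaa2 in 16, Eci1 in 13, Acot2 in 12 and Eci2 in 10, and of the genes not called above Etfb in 7, Ppargc1a in 3, and Bdh1 and Ehhadh in 2 each. The median of the 35 genes, -0.36, was -0.27 within males and -0.41 to -0.25 with an array left out. Pdk4 turned to 0.23 within males and ranged from -0.49 to 0.24 with an array left out, Acaa1b turned to 0.074 and ranged from -0.68 to 0.022, Acot12 turned to 0.18 within males and Acads to -0.067. A further 6 genes within 1 SE of 0 changed sign 17 times without a call. Scaling moved the median of all genes by under 0.1, from -0.024 to -0.020 with quantile normalization and to 0.012 with array medians. With a floor at 4 it was -0.034. Counts over all genes (580 higher, 605 lower) became 1118 and 1234 with 6 separate arrays, 994 and 1108 with the block, 884 and 926 with array weights, 419 and 382 with a floor at 4, 442 and 380 with median scaling, 72 and 88 with a floor at 64, 70 and 92 with no filter, 272 and 261 without replacement 2, and 207 and 167 without replacement 3. The cause of these changes was not tested, beyond fewer arrays where one was left out.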
